A study of Mus musculus with 15 samples.

Results

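The large histone gene cluster of mouse chromosome 13 carries most of the genes that supply histones while DNA is copied. Its signal was described in ATAC-seq data of 6DT1 cells, a mouse mammary tumor line, in which *Smarcd1*, a subunit of the SWI/SNF chromatin remodelling complex, had been raised or lowered. Members were all deposited regions that overlap chr13:21890000-22240000 or chr13:23530000-23955000 (mm39), the 2 parts of the cluster. The rule itself is by position and uses no measured value, although the cluster was proposed with earlier results of these data known. The cluster held 61 of 44598 regions of the table made for the knockdown comparison (KD table), 28 in the first part and 33 in the second. It held 56 of 38036 regions of the table made for the overexpression comparison (OE table), 25 and 31. Of these, 52 pairs of regions overlapped by at least 50% in both directions, which is 85.2% of the KD members and 92.9% of the OE members.

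The study compared 5 lines of 6DT1 grown as a monolayer, with 3 libraries each. EV cells carried an empty vector and OE cells a *Smarcd1* cDNA with a Myc tag at its C terminus, driven by a pol2 promoter, both under blasticidin selection. Scr cells carried a scrambled shRNA, and KD4 and KD6 cells carried shRNAs against *Smarcd1*, all under puromycin selection. The labels do not tell which shRNA of the study KD4 and KD6 carry, and each line was made by viral transduction of 6DT1. Tests below therefore measure the spread between libraries of a line. In comparisons with Scr or EV, an effect of *Smarcd1* cannot be told apart from another difference between the lines. The labels record the libraries of a group as grown from different passages, in a protocol text that describes RNA extraction although the labelled molecule is genomic DNA. The level of *Smarcd1* itself and markers of mammary tumor cells were not analysed here, because regions carry positions and no gene names. Library totals over all regions ran from 16176521 to 23703741 counts in the KD table and from 22668624 to 31225937 in the OE table. Levels are given as CPM, in which the counts of each library are scaled to a common total, here with TMM factors that balance differences in composition. Mitochondrial regions took 3.16% to 4.58% and 3.29% to 5.08% of the counts.

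Replication-dependent histone genes make the H1 linker histones and the H2A, H2B, H3 and H4 core histones that package newly made DNA. They are short and have no introns, they are transcribed mainly in S phase, and their mRNAs end in a conserved stem-loop in place of a poly(A) tail. Many H2A and H2B genes stand head to head and share the stretch of DNA between them. Many copies of a core histone class are nearly identical in coding sequence, so reads from within such genes cannot always be placed on 1 copy.

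Of histone genes in and beside the cluster, 6 are of H1, 15 of H2A, 15 of H2B, 9 of H3 and 11 of H4. RefSeq's annotation of GRCm38.p6 lists these 56 genes, 2 of them pseudogenes, with a median length of 487.5 bases. This build is not that of the deposited regions. No position was converted between them, and only distances along the genes and along the regions are compared below. The 56 genes include H2ac1 and H2bc1, a pair that lies beyond the intervals of the rule. Start windows, from 250 bases before to 50 after the start, could be matched for 51 of the 56 genes, as 52 windows. The windows below show how the classes are built. For each of 4 classes the window nearest the beginning of the chromosome is printed, 5′ to 3′ along the gene, with all matches to 4 motifs on either strand in capitals. The motifs are TATAAA (the TATA box), CCAAT (the CCAAT box), ATTTGCAT (the octamer) and AAACACA (a motif described in H1 promoters). The H2ac13 window shares 272 of its 300 bases with the window of the H2B gene H2bc13, which runs the other way.

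H1f5, linker histone, GRCm38.p6 chr13:21780576-21780875, minus strand: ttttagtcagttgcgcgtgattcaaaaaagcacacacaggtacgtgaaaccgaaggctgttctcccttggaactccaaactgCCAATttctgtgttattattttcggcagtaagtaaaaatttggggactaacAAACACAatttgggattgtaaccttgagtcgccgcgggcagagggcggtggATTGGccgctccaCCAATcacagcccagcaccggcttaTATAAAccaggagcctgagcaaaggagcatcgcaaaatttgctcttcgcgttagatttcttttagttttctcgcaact
H2ac13, core histone H2A, GRCm38.p6 chr13:21716162-21716461, plus strand: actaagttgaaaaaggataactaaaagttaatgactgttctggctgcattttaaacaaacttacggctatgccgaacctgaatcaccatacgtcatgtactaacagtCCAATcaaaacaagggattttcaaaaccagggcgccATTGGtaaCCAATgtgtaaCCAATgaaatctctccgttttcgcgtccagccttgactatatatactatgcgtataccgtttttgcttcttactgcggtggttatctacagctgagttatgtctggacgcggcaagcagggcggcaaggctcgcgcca
H3c10, core histone H3, GRCm38.p6 chr13:21717378-21717677, plus strand: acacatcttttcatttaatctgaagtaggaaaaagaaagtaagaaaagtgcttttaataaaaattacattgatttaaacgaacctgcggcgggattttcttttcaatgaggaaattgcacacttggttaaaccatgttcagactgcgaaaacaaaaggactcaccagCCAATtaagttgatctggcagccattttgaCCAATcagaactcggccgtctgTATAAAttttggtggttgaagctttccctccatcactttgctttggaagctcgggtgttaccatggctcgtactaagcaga
H4c11, core histone H4, GRCm38.p6 chr13:21734784-21735083, plus strand: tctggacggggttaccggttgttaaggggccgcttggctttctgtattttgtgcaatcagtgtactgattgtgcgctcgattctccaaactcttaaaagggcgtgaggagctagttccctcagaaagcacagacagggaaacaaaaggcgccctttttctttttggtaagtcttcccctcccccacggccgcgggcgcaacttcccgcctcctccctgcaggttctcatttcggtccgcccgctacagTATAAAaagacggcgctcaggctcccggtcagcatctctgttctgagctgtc

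TATAAA stood in 59.6% of the 52 windows and in 13.6% of all 32851 RefSeq windows of the same length. CCAAT stood in 84.6% of the cluster windows and in 37.4% of all. Every H1, H2A, H2B and H3 window held it, whereas 3 of 11 H4 windows did. ATTTGCAT stood in 5 of 13 H2A and 6 of 15 H2B windows and in none of the H1, H3 and H4 windows, against 1.74% of all. AAACACA stood in 5 of 6 H1, 2 of 13 H2A and 2 of 15 H2B windows, against 7.18% of all. No H3 or H4 window held it. These matches describe letters in a window and say nothing of a factor's binding.

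A stem-loop near the 3′ end was looked for in the transcripts. Hairpins were taken as a stem of 6 bases and a loop of 4 in the last 120 bases. Among the listed genes with a transcript in GENCODE vM1 (NCBIM37), the most common hairpin was found exactly in 23 of 54, or 42.6%. The 54 include H2ac1 and H2bc1, which did not hold it. By class this hairpin was found in 4 of 6 H1, 7 of 13 H2A and 7 of 15 H2B genes. It was found in 5 of 9 H3 and 0 of 11 H4 genes. Only its exact sequence was counted, so genes without it may hold a hairpin of other bases. The next most common hairpin was held by 6 genes. The most common one stood in 31 of all 55443 protein-coding transcripts. It is printed in capitals with up to 5 bases on each side, for 1 gene of each of the 4 classes that held it.

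H1f1: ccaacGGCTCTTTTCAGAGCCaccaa
H2ac13: ccaaaGGCTCTTTTCAGAGCCactca
H2bc14: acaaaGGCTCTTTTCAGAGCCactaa
H3c1: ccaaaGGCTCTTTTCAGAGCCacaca

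Regions of the cluster were dense and high. The first part held 8 regions per 100 kb and the second 7.76 in the KD table, against 1.53 over the whole of chromosome 13. The 1290 kb between the parts held 5 regions. Densities in the OE table were 7.14 and 7.29 against 1.20, with 3 regions in between. The members made up 0.137% of the regions and 0.105% of the covered bases of the KD table. They took 1.19% to 1.77% of the counts of a library, with a median of 1.52% over the 15 libraries. Members of the OE table made up 0.147% of the regions and took 0.970% to 1.57% of the counts, with a median of 1.27%.

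Levels fell into a high and a low set, separated here at 100 CPM per kb of region, a value chosen after the levels were seen. The KD table had 50 high regions, at 197 to 3737 CPM per kb with a median of 1020, and 11 low ones, at 1.84 to 75.0 with a median of 24.5. The median of all regions was 18.2 CPM per kb. All 50 high regions stood in the top 5% of the table by this measure and 39 in the top 1%, and they held 99.2% of the cluster's counts. The OE table had 51 high regions, at 149 to 3097 CPM per kb, and 5 low ones, at 15.4 to 63.9. In the KD table the high regions had a median length of 233.5 bases, against 249 for the low ones and 302 for all regions. In the OE table the high regions were not shorter than the rest, with 277 bases against 270 for all regions.

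**Figure D1:**
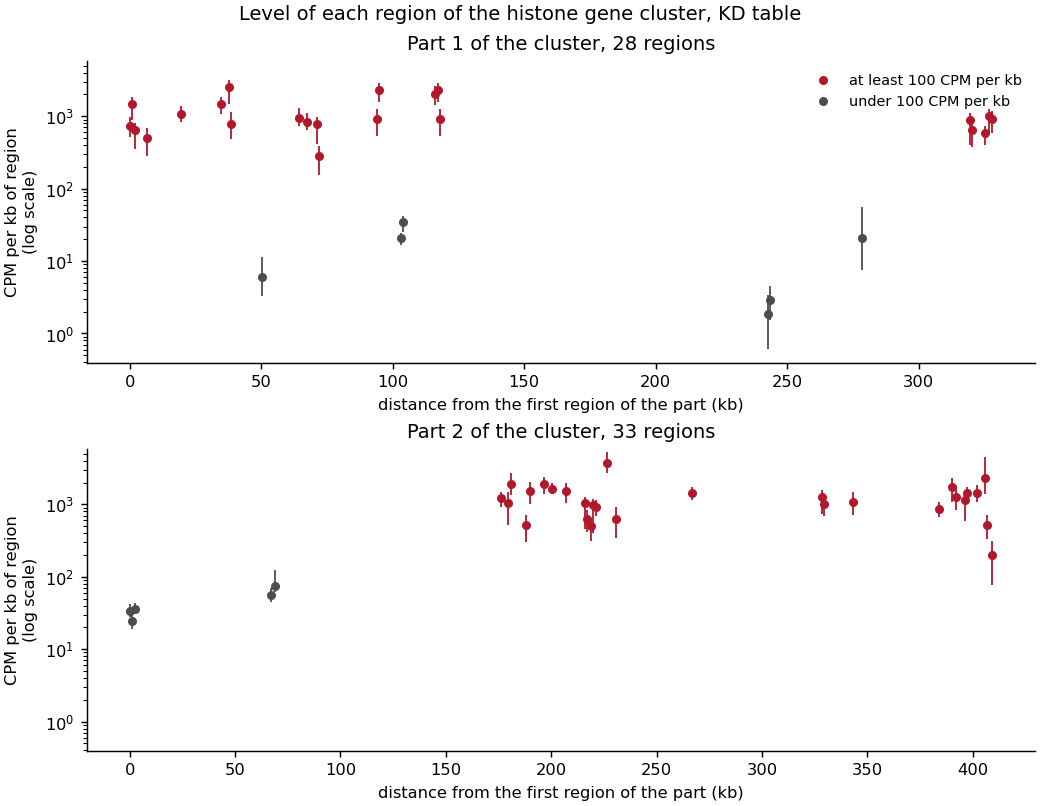
Level of each cluster region in the KD table, in CPM per kb of region on a log axis, by distance in kb from the first region of its part. Points are means over the 15 libraries and lines run from the lowest to the highest library. The 50 high regions (red) sit at 197 to 3737 CPM per kb and the 11 low regions (grey) at 1.84 to 75.0.

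The spacing of the high regions was close to that of the histone genes. In GRCm38.p6 the genes stand in 2 runs, of which the first spans 327.947 kb and the second 233.368 kb, with 1487.39 kb between them. H2ac1 and H2bc1, a pair 169.313 kb beyond the second run, were left out of that span. The high regions of the KD table spanned 327.775 and 232.963 kb, with a gap of 1487.59 kb. To set the pattern of distances of each part against that of the genes, the genes were slid along as a block in steps of 20 bases. At the best alignment 22 of 28 and 28 of 33 regions lay at least 50% on a histone gene body, whereas the next best alignment over 5 kb away gave 8 and 14. All 50 high regions and none of the 11 low ones were among them. They fell on 22 of the 24 genes of the first run and 28 of the 30 of the second without H2ac1 and H2bc1, a pair that lies beyond the intervals of the rule.

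The start windows, which are shorter than most gene bodies, were also slid on their own. At their best alignment in the KD table they held 12 regions of the first part and 12 of the second. At the alignment chosen for gene bodies they held 0 of 61 KD members and 0 of 56 OE members. That count was close to fixed, since this alignment was chosen for gene bodies and the windows reach only 50 bases into a gene. In the OE table all 51 high regions and none of the 5 low ones lay on gene bodies, 23 and 28 in the parts, whereas the start windows on their own held 13 and 14. With each set at its own best alignment, more regions could thus be placed on gene bodies than on start windows in both tables. What kind of molecule these reads came from was not tested. Individual regions were given no gene name, since only the spacing of each part as a whole was compared, and the alignment was chosen for the most regions on gene bodies.

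The values of the cluster's high regions were also less often whole numbers than those of all regions. Numbers with no fractional part as deposited (tolerance 0) made up 87.3% of the members' values in the KD table, against 95.1% of all values, and 60.7% of members had at least 1 value that was not whole, against 26.6% of all regions. The shares were 78.9% and 95% in the OE table. Of the 50 high regions, 5 had fewer than 50% whole values. The rule by which the authors divided reads among regions is not stated. Whether the fractions come from reads that fit more than 1 copy was not tested.

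The highest region, chr13:23765644-23765892 in the KD table, covered 249 bases of the second part. Its level was 1313, 1147 and 755 CPM in EV, 717, 1054 and 693 in OE, 769, 891 and 823 in Scr, 1056, 1018 and 1021 in KD4, and 1154, 871 and 673 in KD6. Libraries of EV and KD6 spread widest and those of KD4 least, and the highest and the lowest library belonged to EV and KD6. The next 4 by mean CPM were chr13:23805833-23806389 with 799.9 CPM, chr13:23739357-23739757 with 660.5, chr13:21937630-21937845 with 545.6 and chr13:23930783-23931137 with 443.3. Over the 15 libraries the highest and lowest of these 5 regions differed by 1.42-fold to 2.2-fold, for chr13:23739357-23739757 and chr13:21937630-21937845.

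The counterpart chr13:23765628-23765899 was highest in the OE table, with 842.4 CPM. It was followed by chr13:23805834-23806389 with 606.7, chr13:23739310-23739782 with 558.9, chr13:21937625-21937907 with 430.0 and chr13:23936388-23936764 with 397.7. The first 4 lie at the same places as the first 4 of the KD table. The lowest regions of the KD table were chr13:22142698-22142950 with 0.465 CPM, chr13:22143220-22143391 with 0.502 and chr13:21950183-21950352 with 1.01. The lowest of the OE table were chr13:22003886-22004041 with 4.19 CPM, chr13:23539061-23539342 with 7.09 and chr13:22003078-22003538 with 7.11. All 6 belonged to the low set.

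Summed over all 61 members of the KD table, the level of the cluster was 14313, 18718 and 13312 CPM in EV and 11940, 17791 and 12112 CPM in OE. It was 12147, 15203 and 14291 CPM in Scr, 16229, 16243 and 17249 CPM in KD4 and 17415, 15107 and 11851 CPM in KD6. KD4 was the only line that stood apart from Scr. Its lowest library was above the highest Scr library, while KD6 spanned Scr on both sides. The highest and lowest libraries of a line differed by 1.41-fold in EV, 1.49-fold in OE, 1.25-fold in Scr, 1.06-fold in KD4 and 1.47-fold in KD6.

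**Figure D2:**
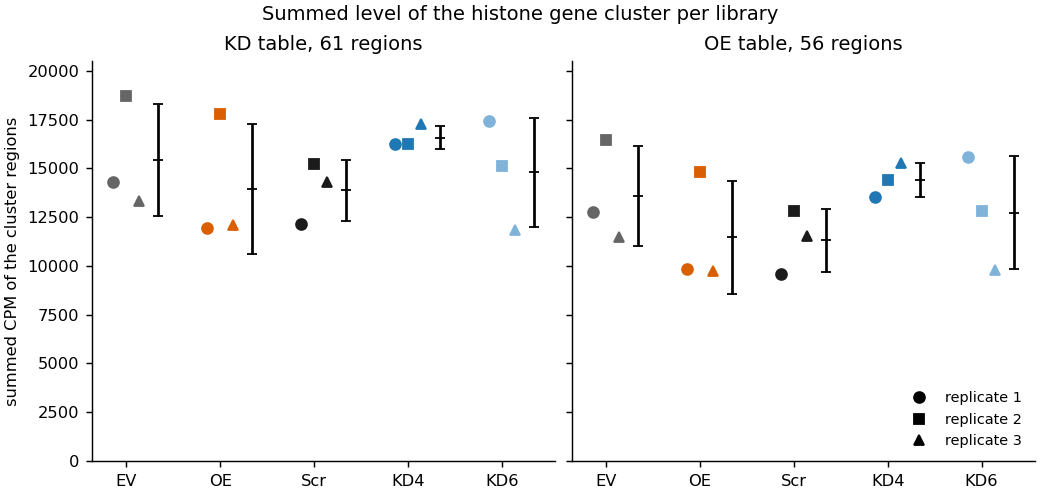
Summed CPM of the cluster regions in each library, for the 61 regions of the KD table and the 56 of the OE table. Symbols are the replicate numbers and bars the mean ± SD of 3 libraries. In both tables KD4 lies above Scr without overlap, and the libraries of EV, OE and KD6 spread over much of the range.

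Group means in the KD table were 15448 ± 2876 CPM for EV, 13948 ± 3329 for OE, 13880 ± 1569 for Scr, 16574 ± 585 for KD4 and 14791 ± 2795 for KD6 (SD, n = 3 each). KD4 was 1.19-fold above Scr, KD6 1.07-fold above Scr, and both lines together 1.13-fold above it. KD6 stood at 0.892 of KD4. These ratios rest on few libraries. On the log2 scale KD6 over Scr was 0.09, and -0.04 without replicate 1 of KD6 or 0.00 without replicate 1 of Scr. Both lines over Scr were at 0.18, and at 0.09 without replicate 1 of Scr. KD6 over KD4 was -0.16, and -0.03 without replicate 3 of KD6 or -0.30 without replicate 1 of KD6. KD4 over Scr was 0.26, and 0.17 without replicate 1 of Scr. Scr stood at 0.899 of EV, with overlapping libraries. In the OE table the levels were 12782, 16440 and 11485 CPM in EV and 9856, 14789 and 9735 CPM in OE, so that OE stood at 0.845 of EV with overlapping libraries. No test was made on sums, since the members were not chosen blind to the data. In bulk libraries a change in the number of cells that give a signal and a change per cell cannot be told apart.

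In several libraries most regions moved together. Replicate 2 of EV was the highest EV library at 45 of 61 regions and replicate 2 of OE the highest OE library at 53. Replicate 1 of Scr was the lowest of its line at 47. Within KD6, replicate 1 was highest at 52 regions and replicate 3 lowest at 51. Other libraries were mixed. Replicate 1 of EV was highest of its line at 14 regions and lowest at 33. In KD4, replicate 1 was highest at 13 and lowest at 29, and replicate 2 highest at 12 and lowest at 26. Counts of regions that share a direction therefore describe the libraries as much as the regions.

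The spread between libraries of a line was wider at the high regions than at other regions above the same floor, which were not matched to them further. The SD of log2 CPM within a line had a median of 0.30 over the 50 high regions, with a range of 0.18 to 0.42. It was 0.16 over the 3786 other regions with at least 46.4 CPM, the level of the weakest high region, and 94.2% of those lay below the members' median. Medians in the OE table were 0.33 for 51 high regions and 0.18 for 1370 others, of which 92.8% lay below it.

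**Figure D3:**
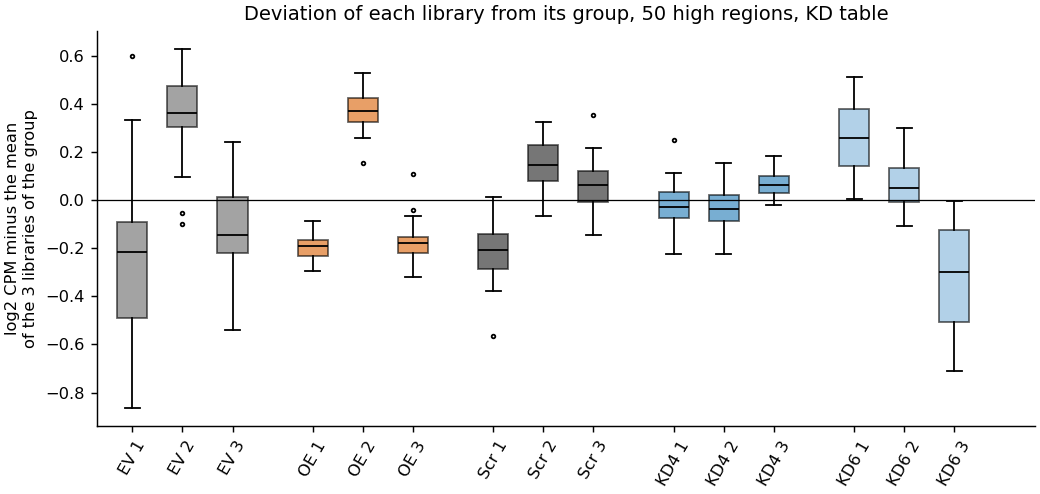
Log2 CPM of the 50 high regions of the KD table in each library, minus the mean of the 3 libraries of that line. Boxes mark quartiles and medians, whiskers the furthest regions not drawn as points. Replicate 2 of EV and of OE sits above 0 at nearly all regions, replicate 3 of KD6 below, and the KD4 libraries lie close to 0.

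Knockdown of *Smarcd1* was compared with Scr in 1 fit of Scr, KD4 and KD6 over all regions of the KD table, and all 61 members passed the filter on low counts. For both knockdown lines together, edgeR's quasi-likelihood test with Benjamini-Hochberg adjustment called 0 of 61 members at 0.05, where 0.271% of 44289 regions were called. At an unadjusted p under 0.05 it counted 3 members, or 4.92%, against 8.25% of all regions, and DESeq2 called 1 member among 270 regions in all, against 120 regions with edgeR. Libraries overlapped at every member, whereas 2.42% of all regions stood higher without overlap. Log2 fold changes were above 0 at 54 of 61 members, against 49.1% of all regions, with a median of 0.14 against -0.01. That shift was seen in the high set, where 50 of 50 were above 0 with a median of 0.15. Of the low regions, 4 of 11 were above 0. Other regions of like level were not counted apart.

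Of the members, chr13:23947704-23948324 had the smallest p among those higher in knockdown and chr13:23539060-23539337 among those lower. The former, the last region of the cluster, gave a log2 fold change of 0.70 (SE 0.16, edgeR adjusted p = 0.098), with 123.6 CPM in the mean of the knockdown libraries and 74.1 in Scr. The latter, of the low set, stood at 8.85 CPM in knockdown and 10.3 in Scr, with a log2 fold change of -0.23 (SE 0.15, edgeR adjusted p = 0.737).

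The lines were then set side by side against the same Scr libraries, which both comparisons share. For KD4, edgeR called 1 member higher and 0 lower, where 0.576% of all regions were called and 0.431% were called higher. At an unadjusted p under 0.05 there were 6 members, or 9.84%, against 9.74% of all. KD4 libraries lay above all Scr libraries at 21 of 61 members, or 34.4%, against 8.88% of all regions, and below them at 1, against 7.34%. Log2 fold changes were above 0 at 52 of 61 members, against 49% of all regions. All 50 high regions were above 0, from 0.11 to 1.04 with a median of 0.25, and 9 of 11 low regions were below 0. The 21 regions were all of the high set, 10 in the first part and 11 in the second. Among them were chr13:23765644-23765892, at a log2 fold change of 0.32, and chr13:23805833-23806389, at 0.26, neither past the test.

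For KD6 against the same Scr libraries, edgeR called 0 of 61 members, where 0.149% of all regions were called, and DESeq2 called 0 members and 156 regions in all. At an unadjusted p under 0.05 there was 1 member, against 5.87% of all regions. It was the low region chr13:21950183-21950352, which was also the 1 member where KD6 stood above Scr without overlap, against 5.92% of all. Its level was 1.02, 1.52 and 1.90 CPM in KD6, 0.557, 0.782 and 0.908 in Scr and 0.788, 0.872 and 0.777 in KD4. The log2 fold change of KD6 over Scr was 0.96 (SE 0.33, edgeR adjusted p = 0.607). Of members lower in KD6, chr13:22003880-22004043 had the smallest p, with 5.45 CPM in KD6 and 6.32 in Scr (log2 fold change -0.21, SE 0.19, edgeR adjusted p = 0.969). Fold changes on the log2 scale were above 0 at 45 of 61 members, against 49.7% of all regions, with a median of 0.07.

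The difference between the knockdown lines was tested in the same fit. With edgeR, 0 of 61 members passed the test of KD6 against KD4, where 0.224% of all regions were called, and DESeq2 called 0 members and 248 regions in all. At an unadjusted p under 0.05 there were 3 members, against 6.37% of all. KD6 lay below KD4 without overlap at 4 members, against 5.8% of all regions, and above it at 2, against 5.93%. In 8 of 61 members the log2 fold change was above 0, against 50.2% of all, with a median of -0.16. The 2 members higher in KD6 without overlap were both low regions and the 4 lower ones were high regions.

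**Figure D4:**
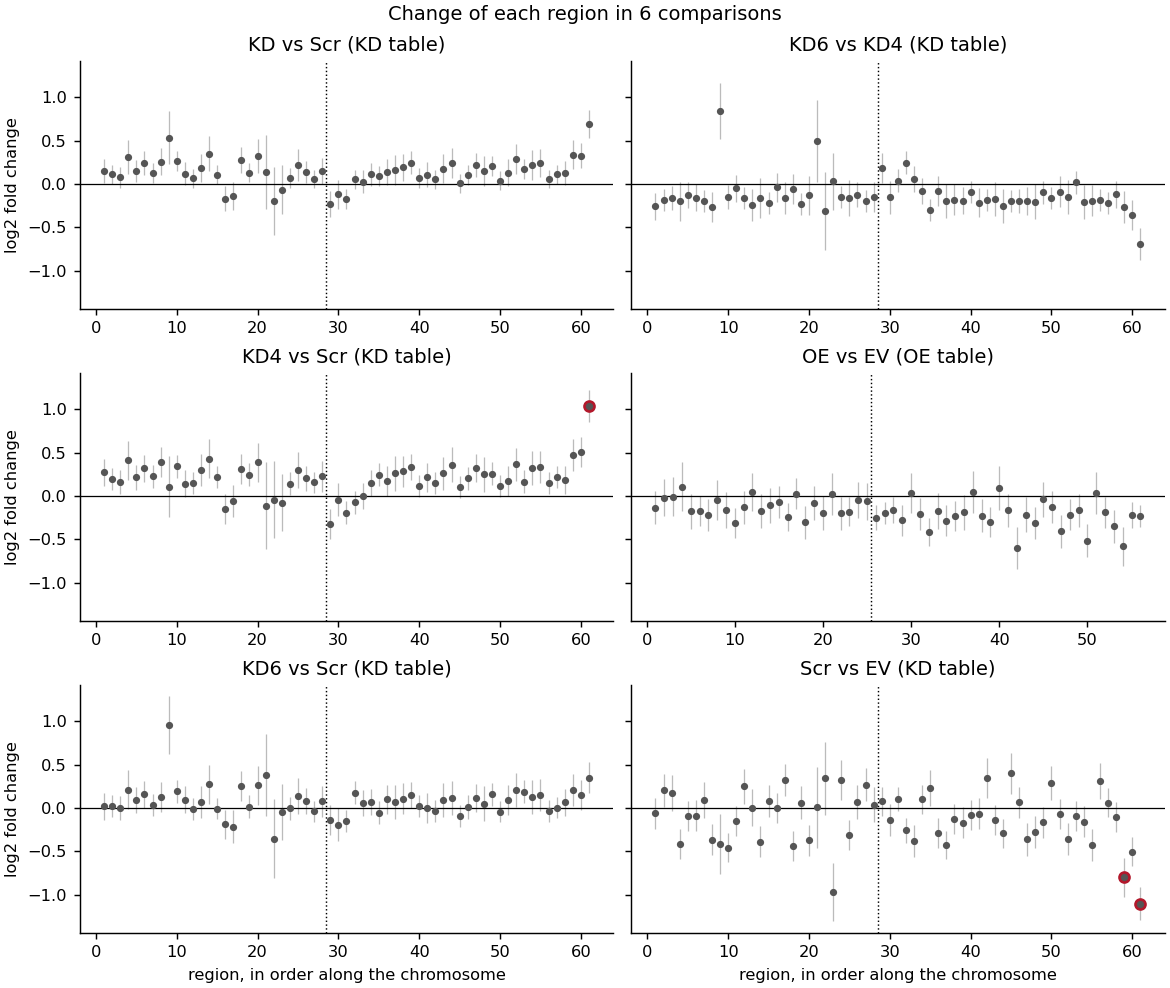
Log2 fold change of each cluster region in 6 comparisons, in order along the chromosome, with the first part left of the dotted line and the second right of it. Bars are ± 1 SE from edgeR and red rings mark an adjusted p under 0.05. Most regions lie slightly above 0 for KD4 against Scr, slightly below 0 for KD6 against KD4 and for OE against EV, and the ringed regions stand at the end of the second part.

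The member called in KD4, chr13:23947704-23948324 (621 bases), is the last region of the second part and the weakest of the high set per kb, at 197 CPM per kb. Its level was 133.0, 168.8 and 156.1 CPM in KD4 and 48.4, 82.7 and 91.2 in Scr. It was 94.5, 102.9 and 86.2 CPM in KD6, 191.7, 148.7 and 141.7 in EV and 106.1, 141.4 and 137.2 in OE. All KD4 libraries lay above all Scr and all KD6 libraries, within the range of EV and OE. Scr was the lowest line and KD6 overlapped it. KD4 exceeded Scr by 1.04 on the log2 scale (SE 0.18, edgeR adjusted p = 0.0165). Without replicate 1 of Scr the difference was 0.81 (edgeR adjusted p = 0.0556), and without replicate 2 of KD4 it was 0.96 (edgeR adjusted p = 0.0905). For KD6 the difference from Scr was 0.35 (SE 0.18, edgeR adjusted p = 0.896), and KD6 was below KD4 by -0.69 (SE 0.18, edgeR adjusted p = 0.187).

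**Figure D5:**
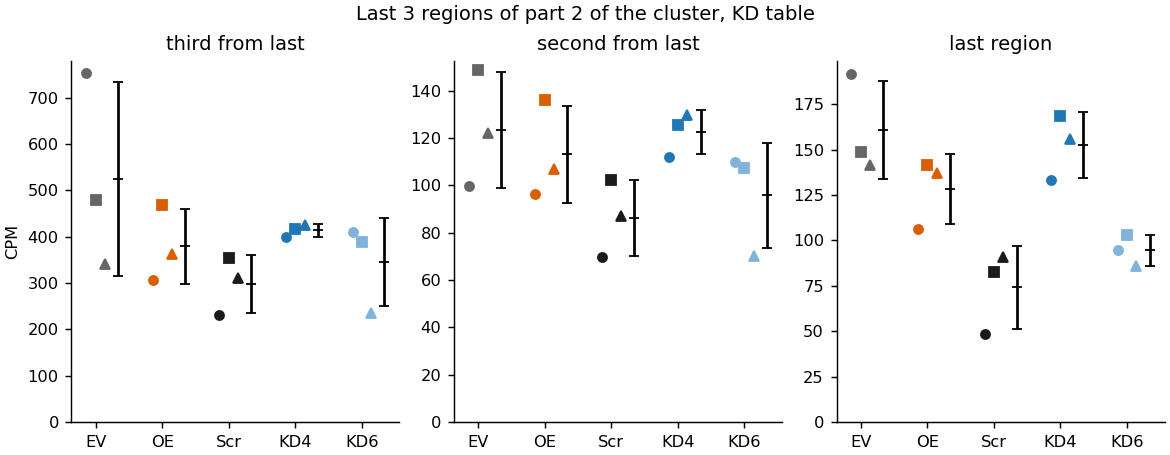
CPM of the last 3 regions of the cluster in each library of the KD table, on axes that start at 0. Symbols are replicates 1 (circle), 2 (square) and 3 (triangle) and bars the mean ± SD of 3 libraries. In the last region Scr lies at 48.4 to 91.2 CPM, below all KD4, EV and OE libraries.

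The members called between the control lines stood at the same end of the cluster, and their share was near that over all regions. Scr and EV differ in vector and drug selection as well as in line, which cannot be told apart. With edgeR, Scr was lower than EV at 2 of 61 members, or 3.28%, and higher at 0. Of all regions 4.38% were called and 2.2% were called lower. The unadjusted p was under 0.05 at 10 members, all lower, or 16.4%, against 22.8% of all regions and 10.8% lower. Scr lay below EV without overlap at 2 members and above it at 1, where each direction held 13.2% of all regions. A log2 fold change above 0 was seen at 25 of 61 members, against 53% of all.

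At chr13:23947704-23948324, Scr was below EV by -1.10 on the log2 scale (SE 0.19, edgeR adjusted p = 0.00381), with no overlap between libraries. The same 3 Scr libraries serve in both this comparison and that with KD4. The other called member, chr13:23944910-23945077, stood at 752.7, 479.4 and 341.9 CPM in EV and at 230.3, 353.0 and 311.0 in Scr. Replicate 1 of EV was far above the rest, and the highest Scr library passed the lowest EV library. The log2 fold change was -0.80 (SE 0.22, edgeR adjusted p = 0.0451). Without replicate 1 of EV it was -0.45 (edgeR adjusted p = 0.200), and without replicate 2 of EV, replicate 1 of Scr or replicate 3 of Scr the adjusted p was 0.0974, 0.198 and 0.126. Mitochondrial regions took 3.82% to 4.45% of the counts in EV and 3.18% to 3.87% in Scr. With those regions left out, the edgeR adjusted p was 0.00386 and 0.0450 for the last and the other member.

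The region between them, chr13:23945964-23946172, was looked at after its values were seen. It stood at 99.8, 148.6 and 121.9 CPM in EV, 69.8, 102.1 and 86.8 in Scr and 112.0, 125.7 and 129.9 in KD4. Scr was lowest in the mean, though replicate 2 of Scr lay above replicate 1 of EV. The log2 fold change was -0.50 for Scr over EV (SE 0.17, edgeR adjusted p = 0.0826) and 0.51 for KD4 over Scr (SE 0.17, edgeR adjusted p = 0.266). Neither passed the test.

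Overexpression was compared with EV in the OE table, where all 56 members passed the filter. With edgeR, 0 of 56 members were called, where 0.0106% of 37765 regions were, and DESeq2 called 0 members and 5 regions in all. The unadjusted p was under 0.05 at 5 members, all lower in OE, or 8.93%, against 8.57% of all regions. OE lay below EV without overlap at 2 members, or 3.57%, against 7.33% of all. A log2 fold change above 0 was seen at 8 of 56 members, against 53.6% of all regions, with a median of -0.18 against 0.02. Of the 51 high regions 44 were below 0, with a median of -0.18.

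Among members lower in OE, chr13:23930787-23931140 had the smallest p. It stood at 512.3, 430.8 and 303.6 CPM in EV and 248.3, 366.6 and 245.5 in OE. Replicate 2 of OE lay inside the range of EV, and the other OE libraries lay below it. The log2 fold change was -0.51 (SE 0.19, edgeR adjusted p = 0.569). Among members higher in OE, the smallest p was at chr13:21905624-21905861, which stood at 39.1, 138.9 and 101.6 CPM in EV and 93.1, 123 and 83.1 in OE. All OE libraries lay inside the range of EV, and the log2 fold change was 0.11 (SE 0.28, edgeR adjusted p = 0.917). Without replicate 1 of EV it was -0.26 and without replicate 2 of OE -0.07.

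The highest region, chr13:23765628-23765899 in the OE table, stood at 1536, 1071 and 684 CPM in EV and 611, 941 and 586 in OE. The lines overlapped, and the log2 fold change was -0.60 (SE 0.24, edgeR adjusted p = 0.569). The last region, chr13:23947763-23948303 in this table, stood at 97.6, 102.8 and 97.3 CPM in EV and 69.8, 92.9 and 88.9 in OE. It was 1 of the 2 members without overlap, by a log2 fold change of -0.23 (SE 0.13, edgeR adjusted p = 0.619).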

How the data were processed

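The study's methods give Bowtie2 as the aligner (mm39) and MACS as the peak caller, both run in Partek Flow, whereas the processing notes of the submitters give STAR 2.7.8a. The deposited values are the authors' expected counts per region, not normalized. They were rounded to whole numbers, because the design had assumed counts. Another 15 columns of each table match no sample and were not used. Tests were made within each table, since their regions differ.

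All regions were fitted with edgeR 4.0.16 in R 4.3.3 (quasi-likelihood, TMM, the tool's filter on low counts, Benjamini-Hochberg FDR of 0.05), tested on simulated data, with DESeq2 1.42.0 as an alternative. Scr, KD4 and KD6 shared 1 fit, and OE with EV and Scr with EV were fitted alone. Named regions were those past the FDR, otherwise the smallest p in each direction, and the 5 highest and 3 lowest by mean CPM of each table. The members and lists were chosen with earlier results of these data known. Replicates differed by more than sampling noise (smallest chi-square per region of 3.55). No annotation or genome of mm39 was used here, so the lists of histone classes, histone mRNA factors, S phase genes and cell type markers were not applied and no region sequence is printed. Start windows are from RefSeq (GRCm38.p6) and transcripts from GENCODE vM1 (NCBIM37). Promoter matches counted both strands.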

Additional observations from a re-analysis of the deposited data

How the results depend on the processing

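Alternatives tried were other scalings, no filter, DESeq2, the other table's regions, mitochondrial regions left out, the replicate block and each library left out, and, added after seeing the data all 5 groups in 1 fit. For KD against Scr, 1 member was called with DESeq2 (chr13:23947704-23948324, adjusted p = 0.0121) and 1 with all 5 groups in 1 edgeR fit (adjusted p = 0.0443), against 0 reported, where 270 and 244 regions of the table were called against 120. For Scr against EV, 1 member was called without TMM and 1 with DESeq2, among 1511 and 2235 regions, against 2 reported. With the replicate block 3 were called there, and the adjusted p of chr13:23944910-23945077 was 0.0612 in edgeR. Leaving out each library in turn gave 0 to 1 calls for KD4 against Scr, 0 without replicate 1 of Scr or replicate 2 of KD4, where 44 and 66 regions of the table were called against 255. It gave 1 to 6 for Scr against EV, 1 without replicate 2 of EV, replicate 1 of Scr or replicate 3 of Scr and 6 without replicate 3 of EV. The calls over the whole table moved with them, at 411, 366 and 454 and at 2852, against 1921 reported. The log2 fold change of chr13:21905624-21905861 for OE against EV turned to -0.26 without replicate 1 of EV and -0.07 without replicate 2 of OE, and was 0.51 without replicate 2 of EV. The cause was not tested. Samples with the same number did not deviate together in every pair (correlations from -0.22 to 0.32), so the numbers were not used as pairs, and the replicate block changed no other call. Summed levels have no test. Their log2 ratios ran from 0.17 to 0.35 for KD4 against Scr over all alternatives, from 0.09 to 0.26 for both lines against Scr, from -0.04 to 0.23 for KD6 against Scr, from -0.30 to -0.03 for KD6 against KD4, from -0.47 to -0.08 for OE against EV and from -0.26 to 0.01 for Scr against EV. The set of genes near each region was not tried, since regions have no gene names.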

Other observations

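Whether knockdown and overexpression moved the members differently was asked in 1 fit of all 5 lines of the KD table, as the change of KD4 and KD6 over Scr minus the change of OE over EV. With edgeR, 0 of 61 members passed an adjusted p of 0.05, where 0.0428% of 44444 regions did. At an unadjusted p under 0.05 there were 7 members, or 11.5%, against 9.05% of all regions. The smallest p was again at the last region, chr13:23947704-23948324, with a difference of 1.02 on the log2 scale (SE 0.24, edgeR adjusted p = 0.159). This contrast also holds the difference between the control lines. Mean levels there were 74.1 CPM in Scr and 160.7 in EV, against 152.6 in KD4, 94.5 in KD6 and 128.2 in OE. OE thus lay between the knockdown lines, and the controls lay furthest apart. For the 56 members of the OE table the count was 0, where 0.0658% of 37967 regions passed, and 15, or 26.8%, had an unadjusted p under 0.05, against 13.8% of all. The counterpart of the last region, chr13:23947763-23948303, gave 1.03 (SE 0.25, edgeR adjusted p = 0.152).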
